A study of Mus musculus with 56 samples.

Results

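Transcripts of 8 nuclear receptor genes and 1 of their co-regulators were examined in single pituitary cells: *Esr1*, *Nr3c1*, *Nr3c2*, *Thra*, *Thrb*, *Rxra*, *Rxrg*, *Nr4a1* and *Nrip1*. The 9 genes were taken by name, as rows of the deposited count table, out of 47069 genes in all. *Esr1*, *Nr3c1* and *Nr3c2* encode steroid receptors, *Thra* and *Thrb* thyroid hormone receptors, and *Rxra* and *Rxrg* retinoid X receptors. *Nr4a1* encodes an orphan receptor of the same family, with no steroid, thyroid or retinoid ligand, and *Nrip1* encodes a protein that is no receptor and binds ligand-occupied receptors. The cells came from pituitaries of untreated, randomly cycling female C57BL/6 mice aged 10 to 12 weeks, and 5 glands were pooled per sample. The dispersed cells had been cultured for 4 days, detached with trypsin and kept in RNA-Best, which protects the RNA of intact cells. Single cells (SCs) were caught on a Fluidigm C1 integrated fluidic circuit, and cDNA was made with SMART-Seq v4 and turned into Nextera libraries, with ERCC spike-ins (synthetic RNAs added in equal amount to each chamber). The labels name 1 culture and no separate animals, so all cells are 1 sample: no test was run, every SD is a spread over cells of that sample, and intervals (exact Clopper-Pearson, 95%) cover counting error only.

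Nuclear receptors are transcription factors whose activity is set by small lipophilic hormones. Steroid receptors bind DNA mostly as pairs of like molecules, while thyroid hormone receptors bind mainly in partnership with a retinoid X receptor. In the pituitary they carry feedback from the target glands: glucocorticoids act on *Pomc* through the receptor encoded by *Nr3c1*, thyroid hormone acts on *Tshb* and *Cga* mainly through that of *Thrb*, and estrogen acts on *Prl* through that of *Esr1*. *Nr4a1* is an immediate-early gene that is induced within minutes of a signal and takes part in the control of *Pomc*. The NRIP1 protein mostly represses, by bringing corepressors to the receptor.

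Of 56 wells, 46 held at least 100000 gene counts and were used, all 10 others being in plate columns 4 to 6 and 10 to 12; those used had a median of 1192620 (range 111195 to 12563266); 25 of them held 1000000 or more. Levels are given in CPM, counts per 1000000 gene counts without spike-ins, and a gene was called detected at 1 CPM or more. In the shallowest of these wells a single count was worth 8.99 CPM, and in the deepest 0.0796 CPM. The ERCC share of all counts ran from 0.144% to 66.1%. Each well was grouped by its leading hormone transcript, the highest among *Prl*, *Gh*, *Pomc*, *Tshb* and the sum of *Lhb* and *Fshb*: 37 wells were *Prl*-led, 5 *Pomc*-led and 4 *Gh*-led. The plate was also split into columns 1 to 3 and 7 to 9 (29 wells) and columns 4 to 6 and 10 to 12 (17 wells), since libraries had been seen to differ between these columns; what was done differently for the columns is not given in the sources used here. Wells C10 and C11 stood apart from all other pairs: over genes with at least 20 counts in a pair, the chi-square between the wells, taken as the median over genes, was 0.772 for them, 1.76 for C11 with F12, which came next, and 31.2 for the median pair. The results are therefore also given without C11 where they rest on it. *Prl*, *Gh* and *Pomc* were each at 1 CPM or more in all 46 wells, also in those led by another hormone; the 5 fibroblast or mural markers summed to at most 83.8 CPM in a well and the 4 folliculostellate or stem markers to at most 336 CPM, with *Col1a1* and *Sox2* at 0 throughout. Endothelial markers (5 genes) reached 8855 CPM in a *Prl*-led well, macrophage markers (6 genes) 449 CPM, gonadotroph markers (4 genes) 64926 CPM and thyrotroph markers (3 genes) 1130 CPM; lactotroph markers (4 genes, nearly all *Prl*) summed to 1216 CPM or more in every well.

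The base sequences before the transcription start are shown for 4 of the genes, to set beside the values below: *Rxrg* and *Nrip1*, whose levels ranked together over wells, *Rxra*, the partner receptor that was high in single wells, and *Nr4a1*, the immediate-early gene. Each is the 250 bases upstream of a RefSeq start on GRCm38.p6, 5′ to 3′ on the strand of the gene, and holds no base that GENCODE M21 puts in an exon. Capitals mark matches, on either strand, to 4 motifs. AGGTCA is the site that 1 molecule of a thyroid or retinoid receptor contacts. AAAGGTCA, which contains it, is the site bound by the NR4A1 protein alone. TGACG is the core of the cAMP-response site, and TGTTCT is the site that 1 molecule of the glucocorticoid or mineralocorticoid receptor contacts. The *Rxrg* window lies at chr1:167618015-167618264 on the plus strand, before the downstream of 2 starts and inside the gene; *Rxra* at chr2:27709042-27709291, plus strand, also before a downstream start; *Nr4a1* at chr15:101266596-101266845, plus strand, inside the gene; and *Nrip1* at chr16:76373828-76374077, minus strand, outside the gene.
Rxrg: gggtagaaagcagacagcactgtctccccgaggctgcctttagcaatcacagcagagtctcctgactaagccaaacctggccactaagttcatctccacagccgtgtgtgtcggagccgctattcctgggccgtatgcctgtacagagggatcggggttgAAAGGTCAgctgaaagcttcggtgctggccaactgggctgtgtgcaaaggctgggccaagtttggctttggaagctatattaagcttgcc
Rxra: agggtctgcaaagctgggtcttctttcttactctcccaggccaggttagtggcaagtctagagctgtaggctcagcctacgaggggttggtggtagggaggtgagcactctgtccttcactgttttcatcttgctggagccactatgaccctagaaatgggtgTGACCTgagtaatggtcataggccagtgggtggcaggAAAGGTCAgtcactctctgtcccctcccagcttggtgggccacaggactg
Nr4a1: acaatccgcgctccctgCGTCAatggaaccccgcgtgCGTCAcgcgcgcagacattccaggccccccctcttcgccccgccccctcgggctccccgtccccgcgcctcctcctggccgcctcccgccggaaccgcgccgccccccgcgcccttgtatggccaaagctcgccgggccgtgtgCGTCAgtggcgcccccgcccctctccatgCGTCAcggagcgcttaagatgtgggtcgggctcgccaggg
Nrip1: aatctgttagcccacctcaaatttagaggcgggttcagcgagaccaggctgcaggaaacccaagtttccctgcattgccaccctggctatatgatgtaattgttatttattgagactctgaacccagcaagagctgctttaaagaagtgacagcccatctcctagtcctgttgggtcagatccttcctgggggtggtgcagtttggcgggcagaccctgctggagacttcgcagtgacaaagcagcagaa

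The windows shown for *Rxrg* and *Rxra* were chosen for their matches: a second RefSeq window of each gene held none of the 4 motifs. The 2 shown each held 1 copy of AAAGGTCA, which 1.34% of 32851 RefSeq windows of this length contain, at 90 and 50 bases before the start. AGGTCA was also found once more in the *Rxra* window, and in 14% of all windows. The *Nr4a1* window held 4 matches to TGACG, all on the opposite strand; 17.8% of all windows hold at least 1 and 0.137% hold 4 or more. The *Nrip1* window, like a second one of that gene, held none of these motifs, and TGTTCT, present in 16.1% of windows, was in none of the 4. RefSeq windows were at hand for 7 of the 9 genes, 12 windows in all, with none for *Thra* or *Nr3c1*. These matches are letters in a window and were not tested for binding or for a relation to any level.

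Most receptors were detected in a minority of cells, and *Thrb* was the exception. *Thrb* was at 1 CPM or more in 37 of 46 wells (80.4%, interval 66.1% to 90.6%), and *Nrip1* in 24 (52.2%, 36.9% to 67.1%). *Esr1* and *Nr4a1* were each detected in 20 wells (43.5%, 28.9% to 58.9%), and *Nr3c1* in 17 (37%, 23.2% to 52.5%). *Thra* was found in 15 wells, *Rxra* in 13, *Rxrg* in 11 and *Nr3c2* in 9 (19.6%, 9.36% to 33.9%). Only *Thrb* and *Nrip1* were thus detected in at least 50% of the wells, as were 12.3% of all 47069 genes. A single count sufficed in shallow wells, so detection rested on depth: had every well been read to 100000 gene counts, 29.6 wells would be expected to show *Thrb*, 19.7 *Nrip1* and 6.4 *Nr3c2*, and only *Thrb* would reach 50%.

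A well held a median of 3 of the 9 genes (SD 2.32 over wells). None was detected in 1 well (H4), all 9 in 1 well (H5), and 2 in the most frequent class of 12 wells. The median was 2 in columns 1 to 3 and 7 to 9 (range 1 to 7) and 6 in columns 4 to 6 and 10 to 12 (range 0 to 9). Among wells with 1000000 or more gene counts, whose median depths were alike in the 2 sets (4485894 and 4444814), the medians were 2 and 5.

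**Figure D1:**
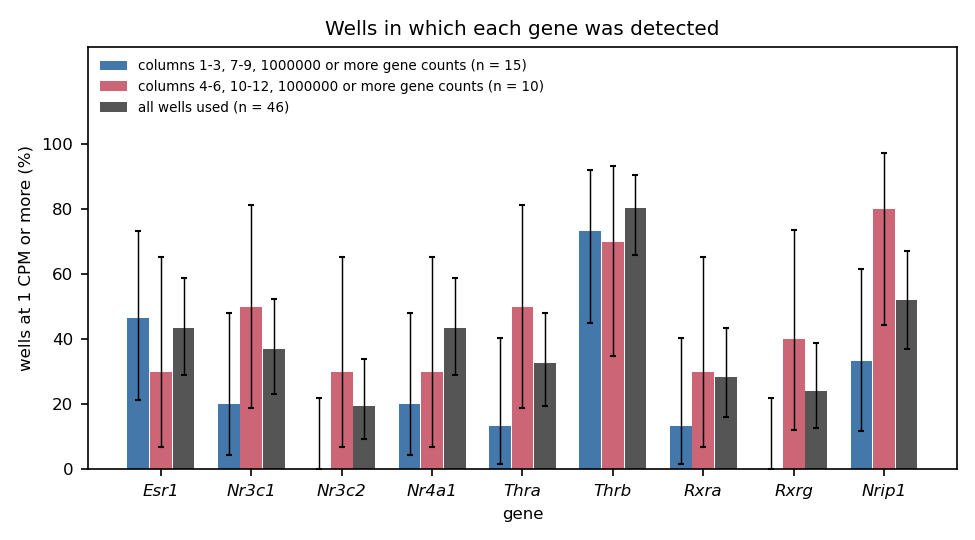
Percentage of wells in which each gene reached 1 CPM, in wells with 1000000 or more gene counts from plate columns 1-3 and 7-9 (blue, n = 15) or 4-6 and 10-12 (red, n = 10) and in all 46 wells used (grey); error bars are exact 95% intervals for counting error. *Thrb* was detected in most wells of each kind, and *Nr3c2* and *Rxrg* in 0 of the 15 deep wells of columns 1-3 and 7-9.

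The steroid receptors were low in the median cell and high in a few. *Esr1*, the estrogen receptor α gene, had a median of 0.228 CPM and was highest in the *Gh*-led well H11 (177 CPM), followed by the *Prl*-led B11 (105 CPM) and the *Pomc*-led H2 (67.6 CPM). *Nr3c1*, the glucocorticoid receptor gene, had a median of 0 and a maximum of 296 CPM in F11, and 6 wells exceeded 100 CPM. None of these 6 was *Prl*-led. *Nr3c2*, the mineralocorticoid receptor gene, was at 236 CPM in B12 and at most 19.9 CPM elsewhere, so that B12 alone held 73.1% of its summed CPM. *Nr4a1* had a median of 0.315 CPM and reached 482 CPM in E8, 275 CPM in B11, 181 CPM in B12 and 116 CPM in D7. *Esr1* had fractional counts, as when a read is shared between features, in 2 wells.

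*Thrb* was the most evenly spread of the 9 genes. Its median was 18.6 CPM, its maximum 273 CPM in B12, and its 5 highest wells held 48.3% of its summed CPM, against 75.1% to 95.7% for the other 8. *Thra*, the more broadly expressed of the 2 thyroid receptor genes in the body, had a median of 0 and a maximum of 106 CPM in C10. *Thra* overlaps *Nr1d1*, a gene of the same family on the opposite strand, and the strand setting of the counting is not given in the sources used here, so reads of the pair cannot be told apart: *Thra* was detected in 15 wells, *Nr1d1* in 13 and both in 6. *Thrb* and *Nr3c2* overlap small noncoding genes.

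The retinoid X receptors split between wells. *Rxra* was above 100 CPM in 2 wells, the *Pomc*-led D10 (384 CPM) and the *Prl*-led G2 (244 CPM) and at most 28.2 CPM elsewhere. *Rxrg* had its highest values in C10 (122 CPM), C11 (121 CPM) and F12 (108 CPM), all *Prl*-led wells of columns 4 to 6 and 10 to 12, and no count in any of the 15 deep wells of the other columns, which allows a share of up to 20% of such wells by the limit of 3 counts for a count of 0, and up to 21.8% by the exact interval. *Nrip1* had a median of 2.42 CPM and the widest range, with 789 CPM in C11, 764 CPM in C10, 600.3 CPM in A1, 447 CPM in F12 and 325 CPM in F4.

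**Figure D2:**
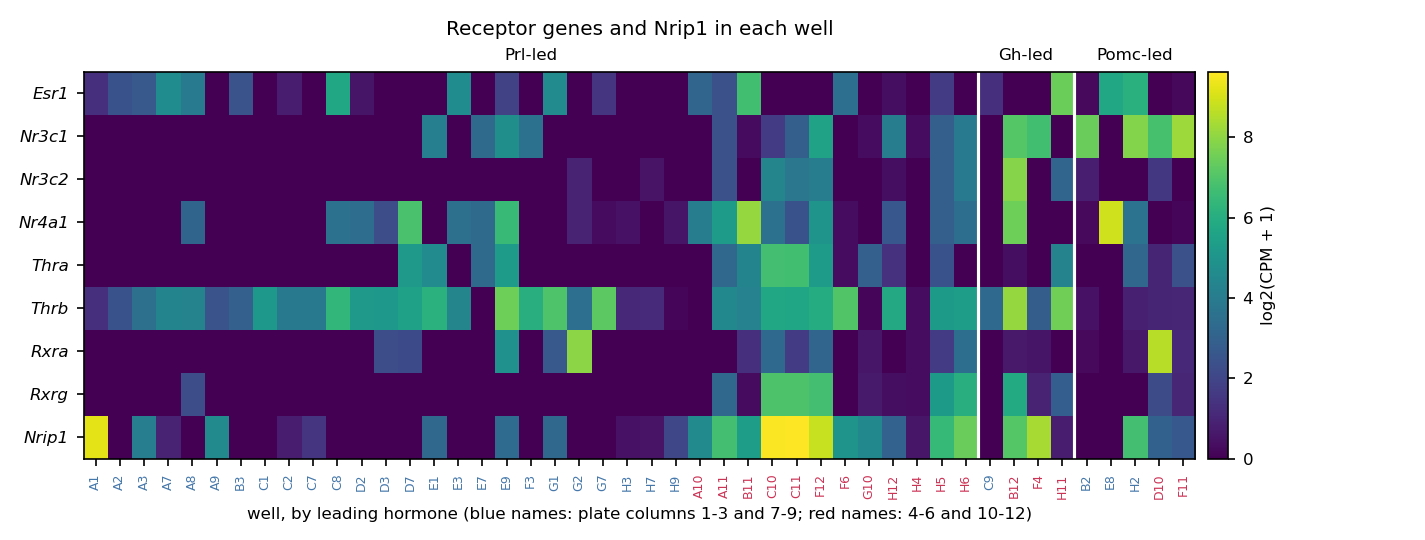
Level of each gene (rows, log2(CPM + 1), colour scale) in the 46 wells used (columns), ordered by leading hormone; blue well names are plate columns 1-3 and 7-9 and red names 4-6 and 10-12. *Thrb* is filled across most *Prl*-led wells and dark in the 5 *Pomc*-led wells, where *Nr3c1* is bright in 4; *Rxrg* and *Nrip1* are brightest under red names.

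Levels between genes were compared per length, as TPM over M21 exons. By the mean of log2(TPM + 1), *Thrb* came first (2.29, SD 1.84), then *Nrip1* (1.61, SD 2.18), *Nr4a1* (1.56, SD 2.18), *Nr3c1* (1.13, SD 1.87), *Rxrg* (1.03, SD 2.04), *Thra* (0.94, SD 1.57), *Esr1* (0.67, SD 1.17), *Rxra* (0.64, SD 1.48) and *Nr3c2* (0.46, SD 1.17). Each gap between neighbours in this order, at most 0.68, was smaller than the spread over cells, so the order of no neighbouring pair was clear. The exons that divide the counts sum to 13661 bases in *Esr1*, the longest, and to 2297 in *Rxrg*, the shortest.

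Within the whole nuclear receptor family of 49 genes, a well held a median of 9 detected genes (range 1 to 21, SD 4.22). *Thrb* and *Nr1h2*, the liver X receptor β gene, were the 2 detected in at least 50% of wells; *Nr1h2* was found in 24 with a median of 1.33 CPM. *Rorb* (22 wells, median 0.714 CPM) and *Pgr*, the progesterone receptor gene (20 wells, median 0.543 CPM), came next by median. 8 of the 49 were detected in no well. Of 20 co-repressors and co-activators 9 were detected in at least 50% of wells, and *Nrip1*, in 24 wells, had a lower median than *Ncor1* (40 wells, 22.6 CPM), *Tbl1x* (32 wells, 19.7 CPM) and *Hdac3* (35 wells, 13.2 CPM), all parts of one corepressor complex. Of 9 chaperones that hold steroid receptors ready for ligand 8 were detected in at least 50% of wells, all but *Fkbp5* (15 wells). The highest medians were 623 CPM for *Hsp90ab1*, 514 CPM for *Hspa8*, 331 CPM for *Hsp90aa1* and 159 CPM for *Fkbp4*. Of 21 genes that supply or remove ligand 7 were detected in no well; *Dio2*, which activates thyroid hormone, was in 16 wells, *Crabp2* in 9 and *Aldh1a3*, a retinoic acid-making enzyme, in 6.

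The clearest relation to a hormone was in *Pomc*-led wells, where *Nr3c1* was high and *Thrb* close to 0. All 5 had over 1000000 gene counts and under 0.9% ERCC. *Nr3c1* measured 171 CPM in B2, 228 CPM in H2, 113 CPM in D10 and 296 CPM in F11, and 0 in E8. In the 37 *Prl*-led wells *Nr3c1* was 0 in the median well and at most 46.3 CPM, so 4 of 5 *Pomc*-led wells lay above every *Prl*-led well. *Thrb* measured 0.377 CPM in B2, 0 in E8, 0.796 CPM in H2, 0.99 CPM in D10 and 1.05 CPM in F11. *Prl*-led wells had a median of 20.1 CPM *Thrb* and a maximum of 181 CPM, and 5 of 37 (A10, E7, G10, H4 and H9) were at or below the highest *Pomc*-led value.

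On the log2(CPM + 1) scale the mean of *Nr3c1* was 6.06 (SD 3.43) in *Pomc*-led and 1.09 (SD 1.75) in *Prl*-led wells, a difference of 4.97 that 99.8% of the 7959 genes with a mean of 10 CPM or more did not exceed. The mean of *Thrb* was 0.67 (SD 0.44) against 4.08 (SD 2.26), a difference of -3.41, and 0.251% of genes had one as low. Of the 9 genes 2 were higher by 1 or more and 1 lower, where 31.5% of all genes were higher and 13.8% lower by as much. The median difference was -0.09 over the 9 genes and 0.33 over all genes tested. The second higher gene was *Rxra* (1.16), through D10 alone: without D10 its difference was -0.46, and within columns 1 to 3 and 7 to 9 it was -0.50. For *Nr3c1* the difference was 4.45 within columns 1 to 3 and 7 to 9 and 5.48 within columns 4 to 6 and 10 to 12, and 5.52 among wells with 1000000 or more gene counts. For *Thrb* these values were -3.60, -3.16 and -3.15. Within columns 4 to 6 and 10 to 12, where D10 and F11 were the *Pomc*-led wells, 7 of the 9 genes were lower by 1 or more, where 31.5% of all genes were, and the median difference was -1.37 over the 9 genes and -0.07 over all genes. With *Prl*, *Gh* and *Pomc* left out of the scaling the differences were 5.02 and -3.85.

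The 5 *Pomc*-led wells were not alike in other markers. E8, the well without *Nr3c1*, was the only one of them with *Pax7*, the melanotroph factor (25.1 CPM), and had 612 CPM *Oacyl* and 1568 CPM *Pcsk2*. In the other 4 *Pax7* was 0 and *Oacyl* at most 2.08 CPM. *Pcsk2* was present in these 4 as well, at 283 CPM in F11, 276 CPM in H2, 44.9 CPM in D10 and 33.2 CPM in B2. The *Gh*-led F4 had 919 CPM *Pcsk2*. E8 also had 482 CPM *Nr4a1* and 52.5 CPM *Esr1*. *Crhr1*, the receptor for the hormone that drives corticotrophs, was 313 CPM in B2, 145 CPM in D10 and 49.4 CPM in H2, and 0 in E8 and F11. *Tbx19*, the corticotroph and melanotroph factor, was 1289 CPM in B2, 777 CPM in F11, 14.5 CPM in E8, 0.398 CPM in H2 and 0 in D10. *Avpr1b* stayed under 1 CPM in all 46 wells. H2 also held 41215 CPM *Cga* and 378 CPM *Lhb*, and F11 held 36905 CPM *Hba-a1* and 44535 CPM *Hbb-bs*, the globin transcripts of red cells. Whether *Nr3c1* in H2 and F11 belongs to the *Pomc*-producing cell or to these other sources was not tested; B2 and D10 had at most 19.9 CPM of either globin gene and 0.755 CPM *Lhb*. Summed over the list, the 4 corticotroph markers ran from 51821 to 356916 CPM in *Pomc*-led and from 27 to 73004 CPM in *Prl*-led wells. These sums are nearly all *Pomc*, the transcript that grouped the wells, so their contrast is fixed by the grouping. The 3 melanotroph markers ran from 35.3 to 2205 CPM and from 0 to 495 CPM, and the 3 erythroid markers from 0.189 to 81639 CPM and from 0.194 to 4475 CPM. The single markers above were named after their values had been seen.

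**Figure D3:**
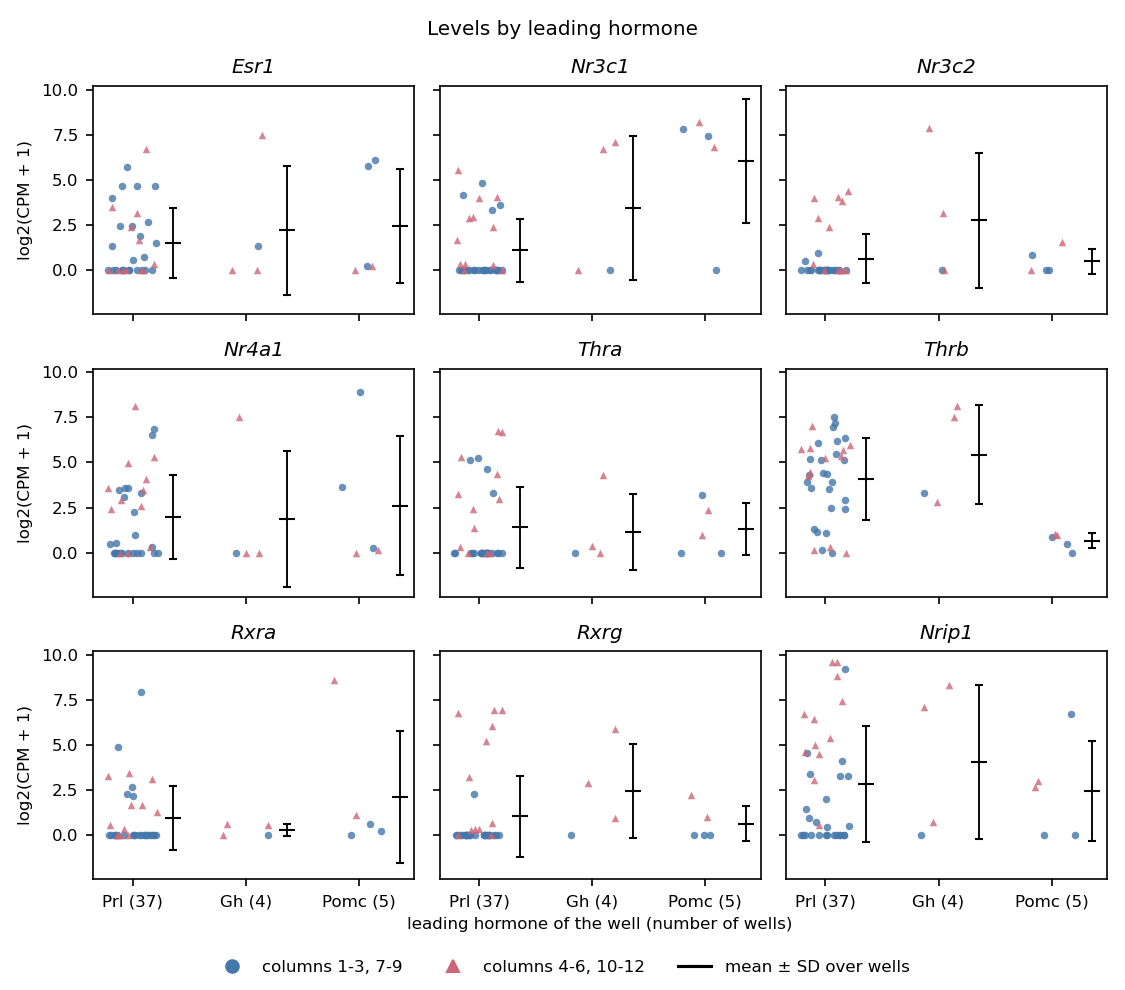
Level of each gene (log2(CPM + 1)) in *Prl*-led (37), *Gh*-led (4) and *Pomc*-led (5) wells; circles are plate columns 1-3 and 7-9, triangles columns 4-6 and 10-12, and the bar beside each group is the mean ± SD over wells. In the panel for *Nr3c1* 4 of 5 *Pomc*-led wells lie above all *Prl*-led wells, and in that for *Thrb* all 5 lie near 0.

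*Gh*-led wells differed widely among themselves: B12 held 6 of the 9 genes at 1 CPM or more, H11 5, F4 3 and C9 2. *Nr3c1* was 135 CPM in B12, 105 CPM in F4 and 0 in C9 and H11. *Nr3c2* was 236 CPM in B12, 7.81 CPM in H11 and 0 in C9 and F4. *Rxrg*, also a somatotroph marker, was 58.2 CPM in B12, 6.43 CPM in H11, 0.938 CPM in F4 and 0 in C9. Only 2 wells thus carried more than 1 CPM of *Rxrg*, and C9, the well with by far the most *Gh* (307675 CPM), had none.

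*Thrb* was 273 CPM in B12, 184 CPM in H11, 8.84 CPM in C9 and 6.09 CPM in F4. *Nrip1* was 325 CPM in F4, 137 CPM in B12, 0.695 CPM in H11 and 0 in C9. *Esr1* was 177 CPM in H11, 1.47 CPM in C9 and 0 in the other 2. B12 and H11 thus held the 2 highest *Thrb* values of all 46 wells. Against *Prl*-led wells 5 genes were higher by 1 or more and none lower, where 28.4% of all genes were higher and 15.5% lower by as much: *Nr3c1* by 2.36, *Nr3c2* by 2.12, *Rxrg* by 1.38, *Thrb* by 1.36 and *Nrip1* by 1.20, with SDs over the 4 wells of 2.60 to 4.28. B12 decided 4 of these: without it *Nr3c2* differed by 0.42, *Thrb* by 0.47, *Rxrg* by 0.23 and *Nrip1* by 0.18. *Thrb* differed by 0.66 without H11, and *Nrip1* by -0.24 without F4. Within columns 4 to 6 and 10 to 12, where 3 of the 4 *Gh*-led wells were, *Nrip1* differed by -0.57 and *Rxrg* by 0.18. The comparison shares its *Prl*-led wells with that of the *Pomc*-led wells.

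*Ghrhr*, a defining somatotroph marker, was 14.2 CPM in H11 and 0 in the other *Gh*-led wells, while F4 had 1643 CPM *Lhb* and 63.8 CPM *Gnrhr*, a gonadotroph receptor gene. *Dlk1*, also on the somatotroph list, was present in each *Gh*-led well: 1332 CPM in H11, 805 CPM in B12, 127 CPM in F4 and 91.4 CPM in C9. The summed level of the 4 somatotroph markers was 5512 to 307766 CPM in *Gh*-led wells and 315 to 202709 CPM in *Prl*-led wells, most of it *Gh*, and the ranges overlapped. The medians were close, at 12540 and 11442 CPM. *Gh* was 10514 CPM in B12, 12350 CPM in H11 and 5384 CPM in F4, against 202245 CPM in the *Prl*-led A11. *Prl* was 2286, 2069 and 2171 CPM in B12, H11 and F4. A *Gh*-led well thus need not hold more *Gh* than a *Prl*-led one. The markers in this paragraph too were named after their values had been seen.

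*Nrip1* and *Rxrg* differed most between the plate columns. *Nrip1* was at 1 CPM or more in 15 of 17 wells of columns 4 to 6 and 10 to 12 and in 9 of 29 wells of columns 1 to 3 and 7 to 9. On the log2(CPM + 1) scale its mean was 5.51 (SD 2.86) and 1.41 (SD 2.33), a difference of 4.10 that 99.9% of genes did not exceed. *Rxrg* differed by 2.85, with a mean of 2.93 (SD 2.76) against 0.08 (SD 0.42). *Nr3c1* followed with 2.06, *Nr3c2* with 1.95, *Thra* with 1.70 and *Nr4a1* with 1.02. So 6 of the 9 genes were higher by 1 or more in columns 4 to 6 and 10 to 12 and none lower, where 33.3% of all genes were higher and 7.85% lower. Of the 7 with a mean of 10 CPM or more, the limit used for all genes, 4 were higher. The count was 6 over all 56 wells, 5 in wells with 1000000 or more gene counts, where *Nr4a1* differed by 0.62, and 4 in wells with 30% ERCC or less, where *Thra* differed by 0.81 and *Nr4a1* by 0.01. With a pseudocount of 10 only *Nrip1* and *Rxrg* reached 1. The median difference was 1.70 over the 9 genes and 0.53 over all genes tested. *Thrb*, *Rxra* and *Esr1* differed by 0.52, 0.83 and -0.25. Among *Prl*-led wells alone the differences were 4.62 for *Nrip1* and 2.98 for *Rxrg*, without C11 3.84 and 2.60, and among wells with 1000000 or more gene counts 2.22 and 1.46. Plate columns, depth and ERCC share moved together, and their parts in these differences cannot be told apart.

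The difference in *Nrip1* was widest in wells with a high ERCC share, that is, with little cell RNA beside the spike-ins. Of wells with more than 30% ERCC, the 5 in columns 1 to 3 and 7 to 9 had *Nrip1* at 22.9 CPM (A9), 16.3 CPM (A3) and 0 (A2, A8 and F3), and the 7 in columns 4 to 6 and 10 to 12 ran from 23.5 to 789 CPM with a median of 170.2 CPM. The 2 ranges did not overlap, but their edges, A9 (5 counts) and A10 (3 counts), lay closer than the worth of 1 count. That was 4.57 CPM in A9 and 7.84 CPM in A10, so no clear separation is shown. *Rxrg* was at most 3.80 CPM in the first 5 wells and from 0 to 122 CPM, with a median of 65.1 CPM, in the 7. With these wells set aside, columns 4 to 6 and 10 to 12 still had a median *Nrip1* of 14.3 CPM (10 wells, 0.496 to 325 CPM) against 0 (24 wells, 0 to 600.3 CPM), and the mean log2 difference was 2.70. In columns 1 to 3 and 7 to 9 only A1 (600.3 CPM) and H2 (106 CPM) had *Nrip1* above 100 CPM, both with no *Rxrg*. *Nr3c2*, *Thra* and *Nr4a1* had the same bias to the 7 wells, with medians of 13.2, 8.51 and 11.1 CPM against 0 for each in the 5. In the 7 wells *Rxrg* counts were 0% of the *Nrip1* counts in A10, 8% in A11, 15.9% in C10, 15.4% in C11, 24.1% in F12, 38.2% in H6 and 42.5% in H5, so the 2 genes were not in 1 fixed ratio. The part of free RNA, of shared library material or of plate handling in this was not tested.

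**Figure D4:**
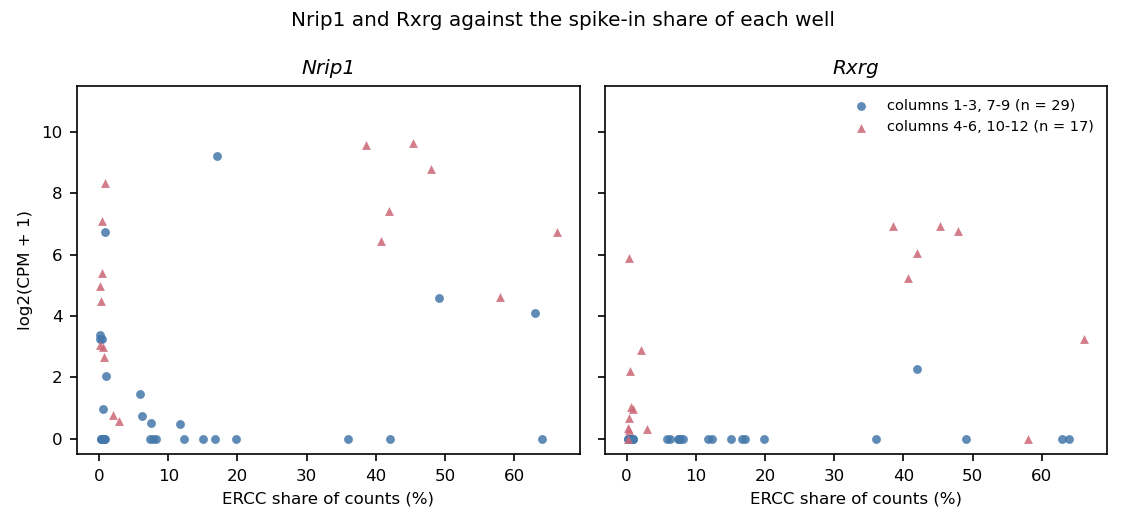
Level (log2(CPM + 1)) of *Nrip1* (left) and *Rxrg* (right) against the ERCC share of each well's counts (%); circles are plate columns 1-3 and 7-9 (n = 29) and triangles columns 4-6 and 10-12 (n = 17). Above a share of 30% the *Nrip1* triangles lie above the circles, at the closest by less than 1 count is worth. *Rxrg* is at 0 in nearly all circles at any share.

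Across all 46 wells no gene of the 9 ranked with depth, ERCC share, *Prl*, *Gh* or *Pomc* at a Spearman's rho of 0.5 or more in size. These correlations are descriptions over cells of 1 sample that share depth and composition. The ones largest in size were *Thrb* with *Pomc* (-0.41) and *Nr3c1* with *Prl* (-0.40). Few genes of any kind reached this limit: with gene counts 1.09% had a rho of 0.5 or more and 0.49% of -0.5 or less, and with ERCC share 0.276% and 3.89%. For *Prl* the shares were 0.0754% and 0.0126%, for *Gh* 0.402% and 0.49%, and for *Pomc* 0.251% and 0.0503%. Within columns 4 to 6 and 10 to 12 *Nrip1* was higher in rank where depth was lower (-0.56, against 0.29 in the other columns), and *Nr4a1*, *Nrip1* and *Nr3c2* ranked with *Gh* at 0.61, 0.58 and 0.51 (0.11, -0.28 and -0.10 in the other columns). Within columns 1 to 3 and 7 to 9 *Nr3c1* ranked with *Pomc* at 0.55, against 0.32 in the other columns. Among the 25 wells with 1000000 or more gene counts 3 values reached the limit. *Rxrg*, detected in 4 of these wells, ranked with *Prl* at -0.60, *Thrb* with *Pomc* at -0.54 and *Nr3c1* with *Prl* at -0.54. The share of all genes that reach it was not computed for these wells.

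How the 9 genes ranked with one another differed between the plate columns. Over 46 wells 6 of 36 pairs had a rho of 0.5 or more, where 1.89% of all pairs of genes with a mean of 10 CPM or more did: *Nr3c2* with *Rxrg* (0.71), *Rxrg* with *Nrip1* (0.58), *Nr3c1* with *Thra* (0.56), *Nr3c1* with *Rxrg* (0.55), *Thra* with *Rxrg* (0.53) and *Nr3c1* with *Rxra* (0.52). In columns 4 to 6 and 10 to 12, where 7.04% of all pairs reached 0.5, 7 of the 36 did. *Nr3c2* ranked with *Rxrg* at 0.89, *Thrb* at 0.67 and *Nrip1* at 0.57, and *Rxrg* with *Nrip1* at 0.65, *Rxra* at 0.63 and *Thra* at 0.52; the seventh pair was *Nr4a1* with *Nrip1* (0.51). *Esr1* went against *Rxra* (-0.60), *Nr3c1* (-0.59) and *Rxrg* (-0.50) there. Without C11 *Thra* with *Rxrg* fell to 0.42 and *Esr1* with *Rxrg* went to -0.46. The other pairs named for these columns stayed at 0.5 or more in size. *Nr3c2* with *Rxrg* then had 0.89 and *Rxrg* with *Nrip1* 0.58. In columns 1 to 3 and 7 to 9, where *Rxrg* was detected in 1 well, these 2 pairs had -0.06 and -0.16, and 1 of the 36 pairs reached 0.5, against 3.16% of all pairs. *Nr3c1* with *Thra* went the other way, with 0.64 in columns 1 to 3 and 7 to 9 and -0.09 in the others. *Nr3c2* and *Rxrg* were both detected in 9 wells, each of them in columns 4 to 6 and 10 to 12. Of these wells 6 had more than 30% ERCC, with 1 (A11) to 9 (C10) counts of *Nr3c2*. Among wells of these columns with 1000000 or more gene counts *Nr3c2* was detected in 3 of 10. No pair values were computed for those 10. *Thrb* ranked with its partner *Rxra* at 0.21 in columns 1 to 3 and 7 to 9 and -0.02 in the others. With *Rxrg* it had 0.45 in columns 4 to 6 and 10 to 12, and *Rxrg* was too rare in the other columns for a value to be read.

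**Figure D5:**
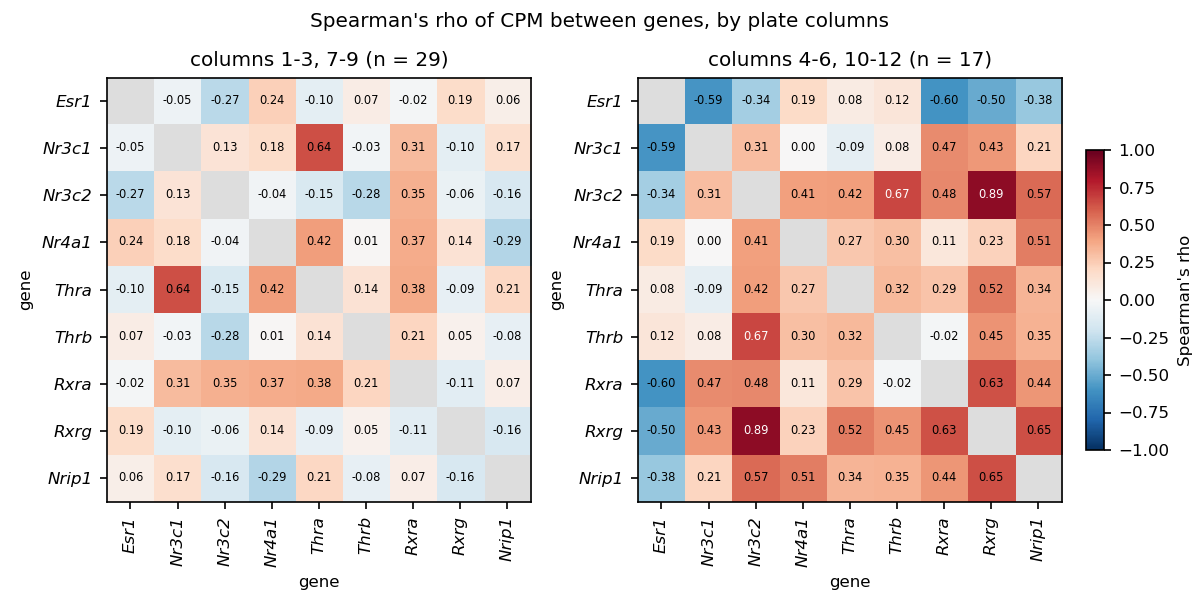
Spearman's rho of CPM for each pair of genes, within plate columns 1-3 and 7-9 (left, n = 29) and 4-6 and 10-12 (right, n = 17); red is positive, blue negative, and the diagonal is grey. On the right 7 pairs reach 0.5 or more, led by *Nr3c2* with *Rxrg* (0.89), and 3 pairs with *Esr1* reach -0.5 or less; on the left only *Nr3c1* with *Thra* (0.64) does either.

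For each gene detected in at least 10 wells, the 3 protein-coding genes most like it were taken by Spearman's rho over 46 wells among 6340 genes. *Thrb* ranked with *Fam91a1* (0.76), *Map3k5* (0.71) and *Fgfr1op2* (0.71), and these held within both column sets (0.61 to 0.82). *Nr3c1* ranked with *Slc25a37* (0.77), *Gprasp2* (0.76) and *Tle1* (0.74), *Thra* with *Sept9* (0.75), *Snap47* (0.73) and *Ccnd2* (0.72), and *Rxra* with *Zfp941* (0.72), *Vma21* (0.69) and *Plin3* (0.69). *Rxrg* was followed most closely by *Stmn4* (0.84), *Zfp865* (0.83) and *Rfng* (0.82), and *Nrip1* by *Rai2* (0.77), *Calr3* (0.76) and *Usp13* (0.75). The values were lower for *Nr4a1*, with *Idh2* (0.61), *Cars* (0.60) and *Mnat1* (0.60), and for *Esr1*, with *Wdr73* (0.57), *Mkks* (0.54) and *Acat1* (0.50). These are the highest of 6340 values each and were chosen as such.

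Genes known to respond to these receptors ranked with them at 0.53 or less among those named here. Of 13 glucocorticoid-responsive genes 9 had a mean of 10 CPM or more, and in *Pomc*-led against *Prl*-led wells 5 of these were higher by 1 or more and 3 lower, against 31.5% and 13.8% of all genes; the median difference was 1.27 on the log2(CPM + 1) scale, against 0.33 over all genes. *Mt1* and *Mt2*, metallothionein genes, were higher by 2.23 and 2.74, *Cdkn1a* by 2.20, *Errfi1* by 2.07 and *Tsc22d3* by 1.27. The 3 lower genes were *Per1* (-2.50), *Dusp1* (-2.23) and *Sgk1* (-1.95), and *Nfkbia* differed by -0.27. *Fkbp5*, with a mean under 10 CPM, differed by -0.25. The list thus went both ways. Over all wells *Nr3c1* ranked with *Nfkbia* at 0.53 and *Cdkn1a* at 0.45, and with *Mt1* and *Mt2* at -0.03 and 0.07. *Esr1* ranked with *Greb1* at 0.14, *Gal* at 0.14, *Pttg1* at 0.16 and *Prl* at 0.01. Of 7 estrogen-responsive genes with a mean of 10 CPM or more 1 was higher and 3 were lower in *Pomc*-led wells. Of all genes 31.5% were higher and 13.8% lower, as above. *Prl* is 1 of the 3 lower genes, and its place there was fixed by how the wells were grouped.

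*Thrb* ranked with *Thrsp*, a thyroid hormone-induced gene, at 0.33, *Me1* at 0.12, *Gh* at 0.09 and *Cga* at -0.11. Of 4 thyroid hormone-responsive genes with a mean of 10 CPM or more 1 was higher and 3 were lower in *Pomc*-led wells (31.5% and 13.8% of all genes). The median difference of the 4 was -1.42. *Gh* is 1 of the 3 lower genes and was itself used to group the wells, so these values are not independent of the grouping. Among retinoid-responsive genes, each set against *Rxrg*, *Dhrs3* ranked at 0.22, *Rarb* at -0.09 and *Crabp2* at -0.23. Of 18 other immediate-early genes 4 are named here, and their values with *Nr4a1* were low: *Ier2* ranked with it at 0.34, *Fos* at 0.24, *Btg2* at 0.09 and *Ier3* at 0.02. These 4 were detected in 35 to 42 wells, against 20 for *Nr4a1*. In counts as sparse as these, such weak values show neither a relation nor the absence of one.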

How the data were processed

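The authors deposited unscaled estimated counts for each gene and each ERCC spike-in in 56 wells, as 1 table. Of values above 0, 33.5% were not whole (tolerance 1e-09). Per the submitters' processing notes STAR 2.5.1b, featureCounts 1.5.0-p1 and mm10 were used for the series; the study's methods name GENCODE release M8 for bulk libraries, and the release for the single cells and the strand setting are not given in the sources used here. Reads, not molecules, are counted, since the protocol has no molecular identifiers. Symbols, positions and exon lengths came from GENCODE M21 (46488 of 47069 genes matched), and sequences from RefSeq windows on GRCm38.p6.

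CPM was computed over gene rows without the 92 spike-ins, and TPM over union exons. Logs are log2(CPM + 1). Wells under 100000 gene counts (10) were left out. Expected detection at 100000 counts is hypergeometric, on counts rounded to whole numbers. A difference of mean log2(CPM + 1) of 1 or more, or a Spearman's rho of 0.5 or more in size, was called, with the share of the 7959 genes with a mean of 10 CPM or more that reach it as background; 7 of the 9 genes had such a mean, and *Nr3c2* (7 CPM) and *Thra* (9.28 CPM) did not. With 1 sample no test was run. Doublets were not called: 56 cells are too few, and an alternative instead left out the 5 wells in which the most genes were detected. It was applied to the median levels only, not to the differences or correlations. H2 (12871 genes at 1 count or more) and B12 (11879 genes) are among these 5 wells.

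The genes named are the 9 genes, the hormones, the 3 genes most like each gene detected in 10 or more wells, the 4 genes of highest median CPM in each list (nuclear receptor family, co-regulators, chaperones, ligand supply, responsive genes, immediate-early genes, cell type markers), and family members detected in at least 50% of wells; some genes that this rule names are not reported here. Some glucocorticoid-responsive genes beyond that rule are named so that both directions show. Genes, lists, motifs and plate columns were chosen with earlier results of these data known. Alternatives changed the detection limit, wells, pseudocount (0.1 or 10), scaling and correlation. The steps were tested on simulated data. Python 3.11.15, numpy 2.4.6, scipy 1.17.1, pandas 2.3.3 and matplotlib 3.10.9 were used.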

Additional observations from a re-analysis of the deposited data

Results flagged for a closer look

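In groups of 4 or 5 wells, some genes had 1 well far from the rest, measured as its gap to the nearest other well divided by the range on the log2(CPM + 1) scale. The wells are cells of 1 sample, so these values are a description and no test. A limit of this kind is passed by chance in about 1 in 20 groups of normally spread values. Many values here are at or near 0, so that rate does not apply. *Nr3c1* in *Pomc*-led wells had E8 far below the others (0.831). *Rxra* in *Pomc*-led wells had D10 far above (0.871). Among *Gh*-led wells *Thra* stood apart in H11 (0.916) and *Nr4a1* in B12 (1), where the value is fixed by the other 3 wells being at 0 counts.

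The 10 wells under 100000 gene counts, which only alternatives used and which all lay in plate columns 4 to 6 and 10 to 12, held counts of 8 of the 9 genes. For 7 of them the total was above the limit of 3 counts that a count of 0 allows: 159 counts of *Nrip1*, 41 of *Rxrg*, 21 of *Thrb*, 11 of *Thra*, 9 of *Nr4a1*, 8 of *Rxra* and 5 of *Nr3c1*. *Nrip1* was present in 8 of these wells, up to 70 counts in D12, and *Rxrg* in 6, up to 14 counts. *Esr1* had 0 counts in all 10.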

How the results depend on the processing

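No paired analysis was possible because the labels give 1 group of wells. With a detection limit of 1 count, 4 genes were detected in at least 50% of wells; 1 was at 10 CPM, as at 100000 counts expected per well, and the median of nuclear receptor genes per well was then 4.5 at 10 CPM. With a pseudocount of 10, 2 genes were higher in columns 4 to 6 and 10 to 12 and 1 in *Pomc*-led wells. Leaving out 1 well at a time gave 2 to 4 genes higher and 1 to 2 lower in *Pomc*-led wells, and 2 to 6 higher in *Gh*-led wells; 7 were lower in *Pomc*-led wells within columns 4 to 6 and 10 to 12, an alternative chosen after seeing the data. *Rxra* in *Pomc*-led wells turned to -0.50 within columns 1 to 3 and 7 to 9 and, leaving out 1 well at a time, ran from -0.46 (without D10) to 1.69. *Nrip1* in *Gh*-led wells turned to -0.57 within columns 4 to 6 and 10 to 12, also an added alternative, and, leaving out 1 well at a time, ran from -0.24 (without F4) to 2.55. Correlations of 0.5 or more in size with depth, ERCC share or hormones numbered 1 by Pearson's r and within columns 1 to 3 and 7 to 9, 4 within columns 4 to 6 and 10 to 12, and 3 among wells with 1000000 or more gene counts or, as an added alternative, per 100000 ERCC counts. Within columns 1 to 3 and 7 to 9, 1 pair of genes reached 0.5, and the rho of *Rxrg* turned to -0.10 with *Nr3c1*, -0.0641 with *Nr3c2*, -0.0858 with *Thra* and -0.16 with *Nrip1*; that of *Nr3c1* with *Thra* turned to -0.0927 within columns 4 to 6 and 10 to 12. The cause was not tested. Of 758 alternative values for 126 results, 647 stayed within the spread over wells, 1.5 times for counts or 0.2 for a rho. For results over the set of genes 48 values stayed and 17 moved. For results of single genes or pairs 599 stayed, 85 moved and 9 reversed. The spread over wells is wide in these data, so for levels and differences this limit is easily met and is no measure of stability.

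Depth limits what an undetected gene means: 1 count was worth up to 8.99 CPM in the shallowest well used, so a gene at 0 there was not detectable at that depth and is not shown to be absent. With 4 or 5 wells in a hormone group, single wells set most of the differences. Amplified reads without molecular identifiers are not independent molecules. The intervals count wells as independent though they are cells of 1 sample, so they leave out spread between samples and are too narrow beyond it.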
